A study of Homo sapiens with 8 samples.

Results

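Glutathione S-transferases were followed through 10 genes: GSTA1, GSTA2 and GSTA4 of the alpha class, GSTM2, GSTM3 and GSTM4 of the mu class, GSTP1 of the pi class, GSTO1 of the omega class, GSTK1 of the kappa class and the membrane-bound MGST1. They were found by symbol, through their Ensembl identifiers, among the 58206 genes of the deposited count table, and they had been chosen with results of the same comparison known. Their own differences between the groups are therefore given as values, and calls of them in the fit are description, not a test. The lists of related genes below were also chosen with earlier results of these data known. Counts of calls in those lists are likewise descriptions. The study sequenced messenger RNA of Alexander1, an established human hepatocellular carcinoma line. The parental libraries, Alexander1_wt with the genotype wt (Axin1 -), come from cells whose AXIN1, a scaffold protein of the complex that marks beta-catenin for destruction, lacks the region that binds the kinase GSK3, so that Wnt signalling is permanently active. The restored libraries, Alexander1_Axin1+, come from a stable derivative described as carrying full-length AXIN1 at a physiological level. There were 4 libraries in each group, named parental 1 to 4 and restored 1 to 4 below. The labels give retroviral transfer of an Axin1 plasmid and clonal selection in hygromycin B as the treatment of all 8 samples; whether the parental cells had received a vector, and how many clones the derivative represents, is not given in the sources used here. Nothing in the labels says that libraries of a group came from separate cultures, so each error below measures the spread between libraries, which may be technical.

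Glutathione S-transferases join the tripeptide glutathione to reactive electrophiles, such as drug metabolites and products of lipid peroxidation, which makes them more soluble and marks them for export from the cell. The cytosolic classes are named by Greek letters and differ in their substrates; the microsomal enzymes belong to a separate membrane protein family. In healthy liver the alpha class is abundant in hepatocytes, whereas GSTP1 is low in hepatocytes and is a familiar marker of altered liver foci in rodents and of many human tumours. Several family genes carry an antioxidant response element, the site read by the transcription factor NRF2 with a small MAF partner. TCF/LEF proteins are the DNA-binding partners of beta-catenin.

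GSTA1 and GSTA2 differ little in sequence, which bears both on their promoters and on how reads can be told apart. The stretches below lie before the annotated ends of the genes, 250 to 95 bases before the RefSeq start (RefSeq, GRCh38.p14, both on the minus strand, at chr6:52803911-52804066 for GSTA1 and chr6:52763570-52763725 for GSTA2). They are shown because they differ at 4 of 156 bases and both hold the core letters of a TCF/LEF site, CTTTGAT, in capitals.
GSTA1 upstream: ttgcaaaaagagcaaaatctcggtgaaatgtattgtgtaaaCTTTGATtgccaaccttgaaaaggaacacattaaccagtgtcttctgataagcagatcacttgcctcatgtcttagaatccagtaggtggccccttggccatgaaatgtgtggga
GSTA2 upstream: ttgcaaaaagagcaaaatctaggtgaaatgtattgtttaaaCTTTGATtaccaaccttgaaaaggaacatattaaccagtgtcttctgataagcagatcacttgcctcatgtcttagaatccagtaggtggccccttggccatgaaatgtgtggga
Over the whole 250 bases before the start, 243 were identical between both genes. The letters CTTTGAT stood 209 to 203 bases before each start, on the strand of the gene. Searched on both strands of windows that run from 250 bases before to 50 after a start, they occurred in 919 of 35116 RefSeq windows, or 2.62%, and in no window of the other 8 members.

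The core of the antioxidant response element, TGACNNNGC, searched in the same way, occurred before the RefSeq start of GSTA4, GSTP1 and GSTO1. It occurred after the start in 1 of the MGST1 windows, and in 13.3% of all windows (4687). The matches before a start are given with their flanks, in capitals for the 9 matching bases, because these members differed in the direction of their values below (RefSeq, GRCh38.p14; GSTA4 at chr6:52995285-52995314 on the minus strand, GSTP1 at chr11:67583736-67583765 on the plus strand, GSTO1 at chr10:104254656-104254685 and chr10:104254721-104254750 on the plus strand).
GSTA4: gtctcacccagccgggaccgcTGACCTGGC
GSTP1: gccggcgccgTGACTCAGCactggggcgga
GSTO1 first match: ggcggagggaTGACTGAGCatttataactt
GSTO1 second match: cgagatgcttTGACACAGCcccttaagatg
The GSTA4 match ended at the base before the start, the GSTP1 match covered 66 to 58 bases before it, and the GSTO1 matches lay at 226 to 218 and 161 to 153 bases. Unlike the GSTA1 and GSTA2 stretches, all of these lay inside the annotated ends of their genes. They thus precede the RefSeq start used but not every annotated start. These are matches of letters, not measured binding.

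The 8 libraries held 11232951 to 15263761 counts in the parental group and 12372436 to 26400782 in the restored group. Levels are given as CPM, the counts of a gene in each 1000000 counts of its library, with the library total scaled by the trimmed mean of M-values (TMM), and 3 counts corresponded to 0.108 to 0.267 CPM. AXIN1 itself averaged 52.4 CPM (SD 3.49) over the parental and 45.4 CPM (SD 5.13) over the restored libraries. Its log2 fold change was -0.21, and the adjusted p from edgeR was 0.267. A higher AXIN1 level was thus not measured in the libraries labelled as restored, and "restored" is used throughout as the label's name for them; total AXIN1 counts do not separate the shortened from the full-length transcript. All 8 hepatocyte markers examined were present at 1 CPM or more, with summed levels of 23060 to 26996 CPM in the parental and 17863 to 21312 CPM in the restored libraries. By edgeR's quasi-likelihood test FGB and TTR were higher and SERPINA1 and TF lower in the restored libraries, and the sum is carried by SERPINA1. Markers of other cells were counted where their mean over the 8 libraries reached 1 CPM. These were 3 of 4 cholangiocyte and progenitor genes, 1 of 5 fibroblast, 1 of 4 endothelial and 1 of 4 leukocyte genes. The leukocyte gene was LYZ, at 421 to 949 CPM in the parental and 672 to 919 CPM in the restored libraries, and CD3E had no counts. PDGFRB, a fibroblast marker under that mean with at most 32 counts, was lower in the restored libraries (log2 fold change -2.87, edgeR's adjusted p = 0.00454). The summed endothelial markers, carried by PECAM1, ran from 4.58 to 6.77 CPM in the parental and from 34.1 to 58.5 CPM in the restored libraries, and their part in the results was not tested. Parental 1 stood apart from its group, with a median correlation of 0.955 with the other parental libraries against 0.984 to 0.985 for those, and restored 1 had 0.972 against 0.981 to 0.986 (Pearson's r across genes, which are not independent replicates). Restored 1 was also the restored library closest to the parental group, with a median r of 0.955 against 0.932 to 0.941. Some markers in restored 1 lay outside both groups. ALB was at 13.8 CPM there, below the parental libraries (46.7 to 208 CPM) and restored 2 to 4 (445 to 681 CPM). KRT19 was at 34.4 CPM there, above the parental libraries (1.29 to 16.9 CPM) and restored 2 to 4 (0.0781 to 1.43 CPM). For part of the values below, the value without parental 1 or restored 1 is given as well.

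Of the 10 members, 9 passed the filter on low counts and entered the fit. In that fit 2 were called higher and 5 lower in the restored libraries at an adjusted p under 0.05, where 19.2% of the 14289 genes tested were called, 10.4% higher and 8.77% lower. With scaling by total counts alone, the split over all genes was 1724 higher and 868 lower instead of 1485 and 1253. The values of the groups did not overlap for 7 of the 9, against 23.9% of all genes tested (12.7% higher and 11.2% lower in the restored libraries). The members had been chosen on this comparison, so nothing is read from these calls or shares, nor from the counts under other settings below. The median log2 fold change of the 9 was -0.52, and that of all genes tested was 0.00. The number called lower depended on the setting: it was 2 with scaling by total counts alone, 3 with the replicate number as a block, and 1 without parental 2, without restored 3 or without restored 4. It was 2 without parental 3, parental 4 or restored 2. Without parental 1 and restored 1 together, chosen after seeing the data, all 10 members entered the fit. There 4 were called higher and 5 lower. The 2 genes called higher in the fit of all 8 libraries, GSTA1 and GSTA4, had a positive value in every setting tried.

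**Figure D1:**
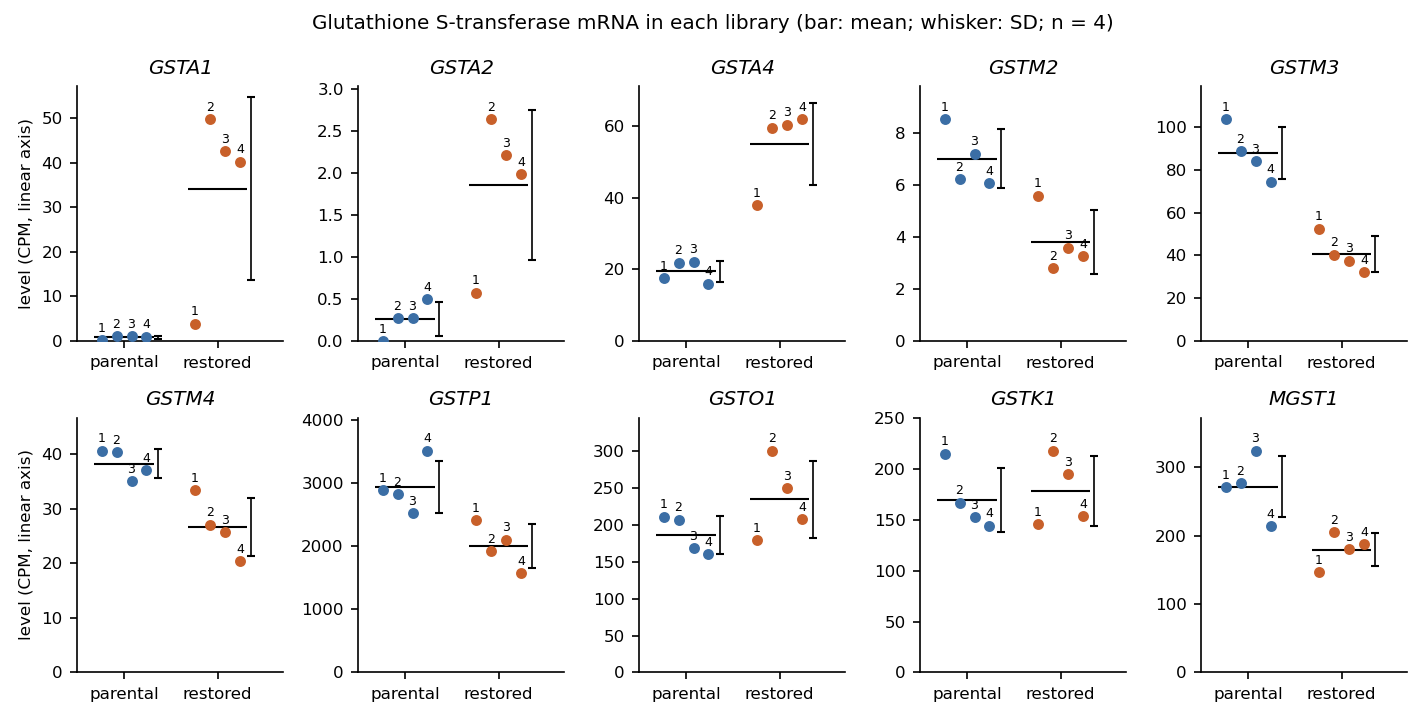
Level of each of the 10 members in every library, in CPM on linear axes that start at 0; points are libraries numbered by replicate, horizontal bars are group means and whiskers are SD (n = 4 a group). The alpha-class genes lie higher in the restored libraries, with restored 1 the lowest of its group; GSTM2, GSTM3, GSTM4, GSTP1 and MGST1 lie lower, and GSTO1 and GSTK1 overlap between the groups.

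The alpha-class genes, neighbours on chromosome 6, were all higher in the restored libraries. GSTA1 (ENSG00000243955, chr6:52791664-52803910, minus strand, GRCh38), the main alpha enzyme of the adult hepatocyte, was at 0.178, 1.02, 1.07 and 0.930 CPM in parental 1 to 4 and at 3.91, 49.8, 42.6 and 40.3 CPM in restored 1 to 4. The groups did not overlap, but restored 1 was closer to the parental libraries than to the other restored ones. The mean rose from 0.798 ± 0.417 to 34.1 ± 20.6 CPM (SD, n = 4), a ratio of 42.8. On the log2 scale the fitted difference was 5.37, with an SE of 0.75 and a 95% confidence interval from 3.72 to 7.03. Restored 2 to 4 alone averaged 44.2 ± 4.95 CPM, and the log2 fold change was 5.75 without restored 1 and 5.07 without parental 1. The parental levels rested on 2, 15, 12 and 13 counts, so GSTA1 was near the limit of detection there. In such bulk libraries, more cells that express the gene and more RNA per cell cannot be told apart.

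GSTA2 (ENSG00000244067, chr6:52750089-52763569, minus strand), whose enzyme overlaps GSTA1 in substrates, had 0, 4, 3 and 7 counts in parental 1 to 4 and 16, 32, 45 and 51 in restored 1 to 4. In CPM this was 0, 0.271, 0.267 and 0.501 against 0.574, 2.64, 2.22 and 1.99. The groups did not overlap, and restored 1 was again the lowest of its group, just above parental 4. GSTA2 was the member that did not pass the filter, so it has no fold change in the fit; with a filter at a mean of 1 CPM in its place the log2 fold change was 2.73 (SE 0.65).

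GSTA4 (ENSG00000170899, chr6:52977948-52995378, minus strand), which acts on hydroxynonenal from oxidised lipids, was already expressed in the parental libraries, at 17.6, 21.9, 22.2 and 16.0 CPM. The restored libraries were at 37.9, 59.7, 60.5 and 62.0 CPM. All restored values lay above all parental ones, with restored 1 once more the lowest. The mean went from 19.4 ± 3.07 to 55.0 ± 11.5 CPM, a ratio of 2.83 (log2 fold change 1.50, SE 0.19, interval 1.09 to 1.91). Without restored 1 the log2 fold change was 1.64.

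Part of the reads of GSTA1 and GSTA2 are hard to separate. Their coding sequences were identical at 647 of 669 bases (96.7%), and the longest identical run was 209 bases. The stretch with most differences, coding bases 314 to 373 (GENCODE 29 transcripts), is printed as an example of bases that tell the copies apart. Capitals mark the 7 bases that differ there, of 22 in the whole coding sequence.
GSTA1 coding: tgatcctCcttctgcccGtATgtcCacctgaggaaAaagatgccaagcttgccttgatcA
GSTA2 coding: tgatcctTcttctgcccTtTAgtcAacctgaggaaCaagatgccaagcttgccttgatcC
Of all 50-base words of the GSTA1 transcript 28.9% also occurred in another gene, and for GSTA2 it was 18.4%. With words of 100 bases the shares were 12.0% and 9.06%. No word of either length was shared for GSTA4. Of the counts of both near-copies together, GSTA2 held 16 of 125 in restored 1, or 12.8% (exact Clopper-Pearson interval 7.50 to 20.0%). It held 5.04%, 4.95% and 4.71% in restored 2 to 4. In the parental libraries it held 0 of 2, 4 of 19, 3 of 15 and 7 of 20. How multi-mapped reads were counted is not given in the sources used here, so the split between GSTA1 and GSTA2 is uncertain. Their sum does not depend on that split, but it would change if shared reads were discarded or given to other genes. The intervals cover counting error only.

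The mu-class genes, clustered on chromosome 1, all went the other way. GSTM3 (ENSG00000134202, chr1:109733932-109741038, minus strand), the most divergent mu enzyme and known from testis and brain, was at 104, 88.8, 84.0 and 74.4 CPM in the parental libraries and at 52.4, 40.4, 37.6 and 32.3 CPM in the restored ones. The lowest parental value lay above the highest restored value. The mean was 87.7 ± 12.2 CPM in the parental and 40.7 ± 8.53 CPM in the restored group. It was 2.16 times higher in the parental (log2 fold change -1.11, SE 0.17, and -1.26 without restored 1). GSTM3 shares 202 exon bases with an unnamed gene on the opposite strand (ENSG00000241720) that was nearly unexpressed, at a mean of 0.115 CPM.

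GSTM2 (ENSG00000213366, chr1:109668022-109709551, plus strand), a cytosolic enzyme best known from muscle, was low in both groups. It was at 8.54, 6.23, 7.22 and 6.08 CPM in parental 1 to 4 and at 5.60, 2.81, 3.60 and 3.28 CPM in restored 1 to 4. The groups did not overlap, but restored 1 came close to parental 4. The log2 fold change was -0.86 (SE 0.25), and -1.11 without restored 1.

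GSTM4 (ENSG00000168765, chr1:109656081-109674836, plus strand), the nearest relative of GSTM2 among the members, was at 40.6, 40.3, 35.0 and 37.0 CPM in the parental and at 33.4, 27.1, 25.7 and 20.3 CPM in the restored libraries. Restored 1 lay just under parental 3, and the other restored libraries were well below. The log2 fold change was -0.52 (SE 0.16), and -0.65 without restored 1. GSTM2 and GSTM4 share 375 exon bases on the same strand and 89.0% of coding bases. Of the 50-base words of GSTM2, 74.5% also occurred in another gene, against 18.6% for GSTM4 and 5.90% for GSTM3. This was the highest share of the 10 members, so the counts of GSTM2 may hold reads of its relatives.

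GSTP1 (ENSG00000084207, chr11:67583595-67586656, plus strand), the pi-class enzyme, had the highest level per length of the members in every library. It was at 2888, 2824, 2527 and 3516 CPM in the parental and at 2411, 1926, 2105 and 1570 CPM in the restored libraries. The groups did not overlap, though restored 1 lay just below parental 3. The mean was 2939 ± 416 CPM in the parental and 2003 ± 352 CPM in the restored group. The log2 fold change was -0.55 (SE 0.17, interval -0.93 to -0.18), and -0.66 without restored 1.

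MGST1 (ENSG00000008394, chr12:16347142-16609259, plus strand), a glutathione transferase and peroxidase of the endoplasmic reticulum and outer mitochondrial membrane, was at 271, 277, 324 and 214 CPM in the parental and at 146, 205, 180 and 187 CPM in the restored libraries. The highest restored value, in restored 2, lay just under the lowest parental value. The log2 fold change was -0.60 (SE 0.15), and -0.51 without restored 1.

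GSTO1 and GSTK1 showed no separation of the groups when all 8 libraries were used. GSTO1 (ENSG00000148834, chr10:104235356-104267459, plus strand), an omega-class thioltransferase that also reduces dehydroascorbate, was at 211, 207, 168 and 160 CPM in the parental and at 180, 301, 250 and 208 CPM in the restored libraries. Restored 1 fell within the parental range, and the interval of the log2 fold change ran from -0.05 to 0.71 around 0.33. Without parental 1 and restored 1 together, the log2 fold change of GSTO1 was 0.50. The highest parental value left, 207 CPM, then lay just under the lowest restored one, 208 CPM. GSTK1 (ENSG00000197448, chr7:143244093-143270854, plus strand), the kappa-class enzyme of mitochondria and peroxisomes, was at 215, 167, 153 and 144 CPM in the parental and at 146, 218, 195 and 154 CPM in the restored libraries. Its log2 fold change was 0.07 (interval -0.31 to 0.45), and its sign turned without restored 2 (-0.039).

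To compare genes with each other, levels were divided by the length of the merged exons (RPKM, that is CPM per kilobase). On this scale GSTP1 was at 1538 RPKM in the parental group, followed by GSTO1 at 110 RPKM, and neither range over libraries met the next gene's. GSTK1 (40.1 RPKM) and MGST1 (36.5 RPKM) overlapped. Below them came GSTM3 at 18.5, GSTA4 at 8.93 and GSTM4 at 6.65 RPKM, each separate from its neighbours in this order. GSTA1 (0.783 RPKM) and GSTM2 (0.770 RPKM) overlapped, and GSTA2 was lowest at 0.198 RPKM.

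In the restored group GSTP1 (1048 RPKM) and GSTO1 (139 RPKM) still led without overlap. GSTK1 followed at 42.1 RPKM, and GSTA1 was next at 33.5 RPKM, having moved from the eighth to the fourth place; its range, 3.84 to 48.9 RPKM, overlapped those of GSTK1, GSTA4 (25.3), MGST1 (24.1), GSTM3 (8.56) and GSTM4 (4.63). In restored 1 GSTA1 lay below GSTM4, which was at 5.81 RPKM there. GSTA2 (1.41) and GSTM2 (0.419) overlapped at the end. This order depends on the length used. With the length of the principal transcript instead, GSTP1 still led and GSTA1 moved from the ninth to the sixth place. In the parental group MGST1 (277 RPKM) then took the second place above GSTO1 (192) without overlap, and the order of GSTM3, GSTA4 and GSTM4 reversed to GSTM4 (27.1), GSTA4 (24.5) and GSTM3 (21.7), with overlapping ranges. In the restored group MGST1 (184) lay between GSTO1 (242) and GSTK1 (171), with overlapping ranges. GSTP1 made up 87.2% ± 2.34 of the 10 members' summed level in the parental group (85.8 to 90.7% over libraries) and 78.7% ± 5.40 in the restored group. Restored 1, at 86.3%, lay within the parental range, and restored 2 to 4 were at 74.3 to 78.5%. GSTA1 rose from 0.0453% ± 0.0254 to 2.62% ± 1.60 of that sum, and GSTO1 from 6.34% ± 1.16 to 10.6% ± 2.44. The sum itself was lower in the restored libraries, at 1086 to 1462 RPKM against 1538 to 2029 RPKM in the parental ones. The shares therefore also reflect the sum, and the level of GSTO1 itself overlapped between the groups.

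**Figure D2:**
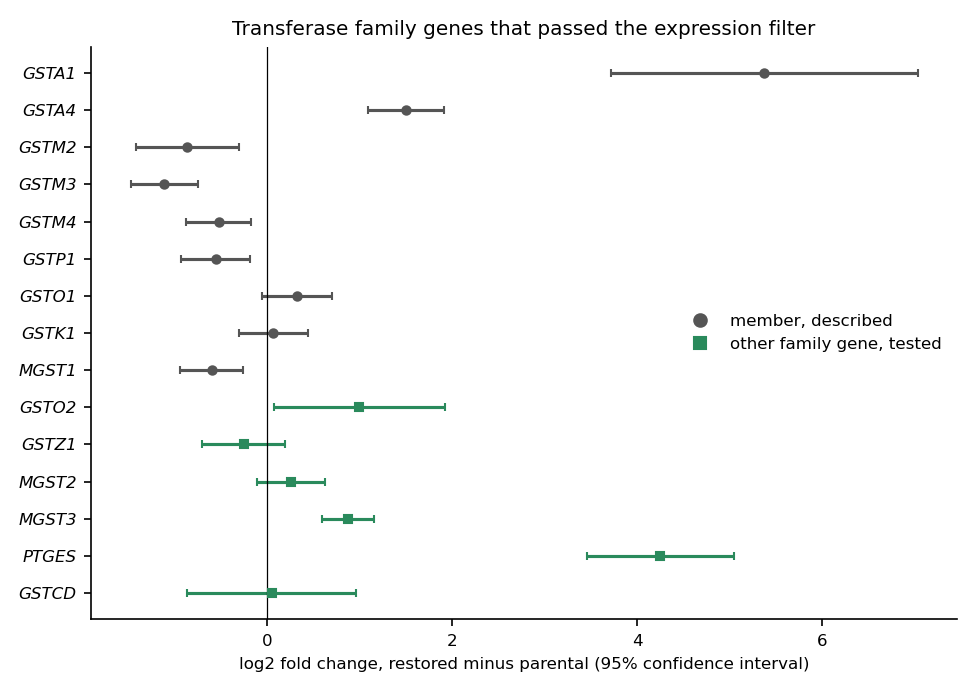
Log2 fold change, restored minus parental, of the 9 members that passed the filter (circles) and of 6 other family genes (squares), with 95% confidence intervals from edgeR's quasi-likelihood fit of 4 libraries a group. GSTA1 at 5.37 and PTGES at 4.25 lie far to the right of the rest, GSTM3 at -1.11 lies furthest to the left, and the intervals of GSTO1 and GSTK1 span 0.

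The values of the genes around the members are set beside those of the members. Near the mu-class genes, 68 other genes tested within 5 Mb of GSTM3 had a median log2 fold change of -0.62, with 65 below 0. Of them 22 were called lower and 0 higher in edgeR's quasi-likelihood test, where 8.77% of all genes were called lower. Within 1 Mb the median of 31 genes was -0.59, with 30 below 0 and 10 called lower. The shift was not seen in restored 1. After subtracting each gene's mean log2 CPM, the 5 Mb median was 0.16 to 0.41 in the parental libraries. It was 0.13 in restored 1 and -0.50 to -0.42 in restored 2 to 4. Without restored 1 the median log2 fold change was -0.83. GSTM3 itself was low in restored 1, at 52.4 CPM against 74.4 to 104 CPM in the parental libraries. GSTM3 lay 0.49 below the 5 Mb median and GSTM2 0.25 below theirs, while GSTM4 lay 0.09 above it. The nearest tested neighbours were AMPD2, an AMP deaminase, at -0.53 (adjusted p = 0.0693), and EPS8L3, a relative of an EGF receptor substrate, at -1.34 (adjusted p = 0.00111). No neighbour was called higher at an unadjusted p under 0.05, with DESeq2 or with limma-voom (0 each). A change across the chromosome region and separate changes of its genes cannot be told apart from these levels, and DNA copy number was not analysed here.

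**Figure D3:**
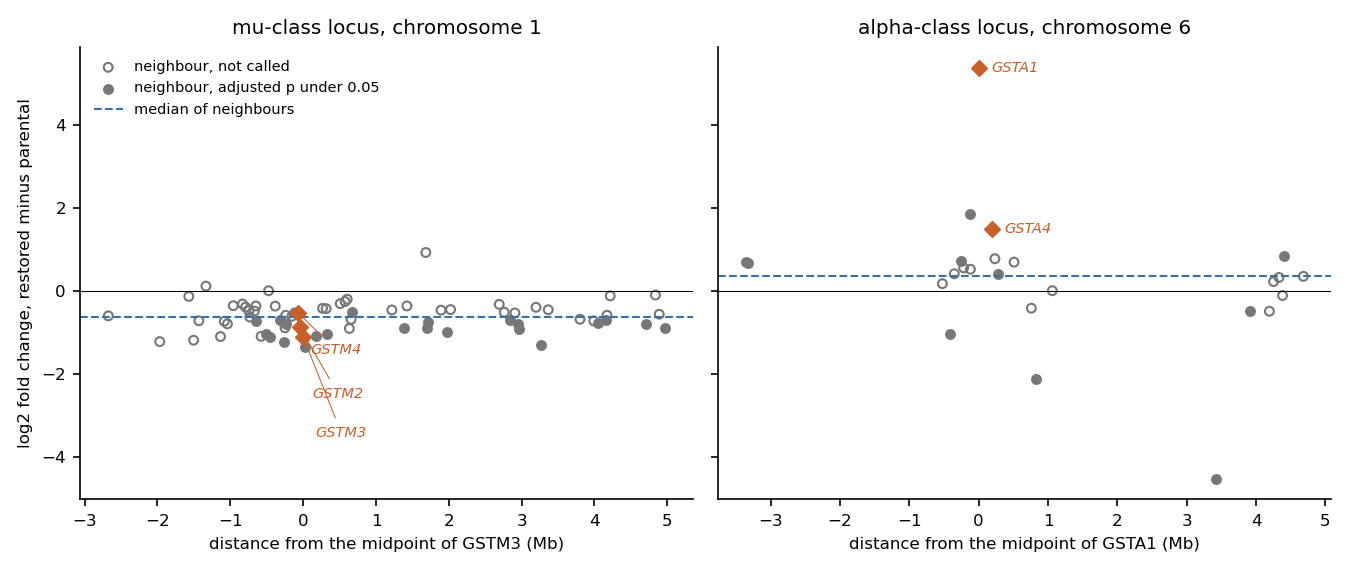
Log2 fold change, restored minus parental, of every other gene tested within 5 Mb of GSTM3 (left) and GSTA1 (right), against distance in Mb; filled circles passed an adjusted p of 0.05, diamonds are members and dashed lines are the neighbours' medians. Around GSTM3 nearly all neighbours lie below 0 with a median of -0.62, whereas around GSTA1 they scatter about 0.35, with GSTA1 far above them.

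The surroundings of the alpha-class genes had a small positive median. The 23 other genes tested within 5 Mb of GSTA1 had a median of 0.35. Of them 6 were called higher and 4 lower, beside 10.4% and 8.77% of all genes tested. The 12 within 1 Mb had a median of 0.47. GSTA1 lay 5.02 and GSTA4 1.16 above the medians of their neighbours, but 1 unnamed neighbour (ENSG00000216775), called higher at 1.86, lay above GSTA4. GSTA2 has no value in this fit. TMEM14A, a membrane protein gene beside GSTA1, was at 0.52 (adjusted p = 0.0614), and CILK1, a ciliary kinase gene beside GSTA4, at 0.77 (adjusted p = 0.104). With no expression filter the median around GSTA1 was -0.029.

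Around GSTP1, 206 genes within 5 Mb had a median of -0.30, with 43 called lower and 3 higher. Of all genes tested, 8.77% were called lower and 10.4% higher. GSTP1 lay 0.25 below the median of its neighbours. Its nearest neighbours CDK2AP2 and NDUFV1, the latter a subunit of respiratory complex I, were at -0.26 and -0.27 (adjusted p = 0.265 and 0.143). The 32 genes around MGST1 had a median of -0.19; DERA, deoxyribose-phosphate aldolase, was its nearest tested neighbour and was lower, at -0.86 (adjusted p = 0.00669). Around GSTO1 and GSTK1 the medians within 5 Mb were 0.05 and -0.06. Within 1 Mb of GSTO1 the median of 12 genes was 0.31, near the 0.33 of GSTO1 itself. Of these genes 9 were above 0, 2 were called higher and 1 lower. Within 1 Mb of GSTK1 the median of 10 genes was 0.11, with 1 called higher and 1 lower. The neighbours SFR1 (0.14, adjusted p = 0.748), beside GSTO1, and CASP2 (-0.05, adjusted p = 0.818), beside GSTK1, did not pass the test.

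By the root mean square difference of centred log2 CPM over the 8 libraries, the genes with a profile most like that of GSTA1 were ADH1C, an alcohol dehydrogenase (0.53), IQGAP2, a scaffold protein (0.59), UGT2B11, a UDP-glucuronosyltransferase (0.65), COL4A5, a basement membrane collagen (0.73), and CYP4F11, a cytochrome P450 (0.81). All 5 had restored 1 between the groups. ADH1C was at 0.825 CPM there, against at most 0.286 CPM in the parental and 5.70 to 9.51 CPM in the other restored libraries. IQGAP2 was at 26.2 CPM in restored 1, against at most 4.79 and 113 to 155 CPM, and UGT2B11 at 34.0 CPM, against at most 5.15 and 108 to 140 CPM. COL4A5 had no counts in the parental libraries. The genes were picked on all 8 libraries, so an intermediate restored 1 was part of the choice. The likeness is a description of these libraries, which also share depth and preparation.

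**Figure D4:**
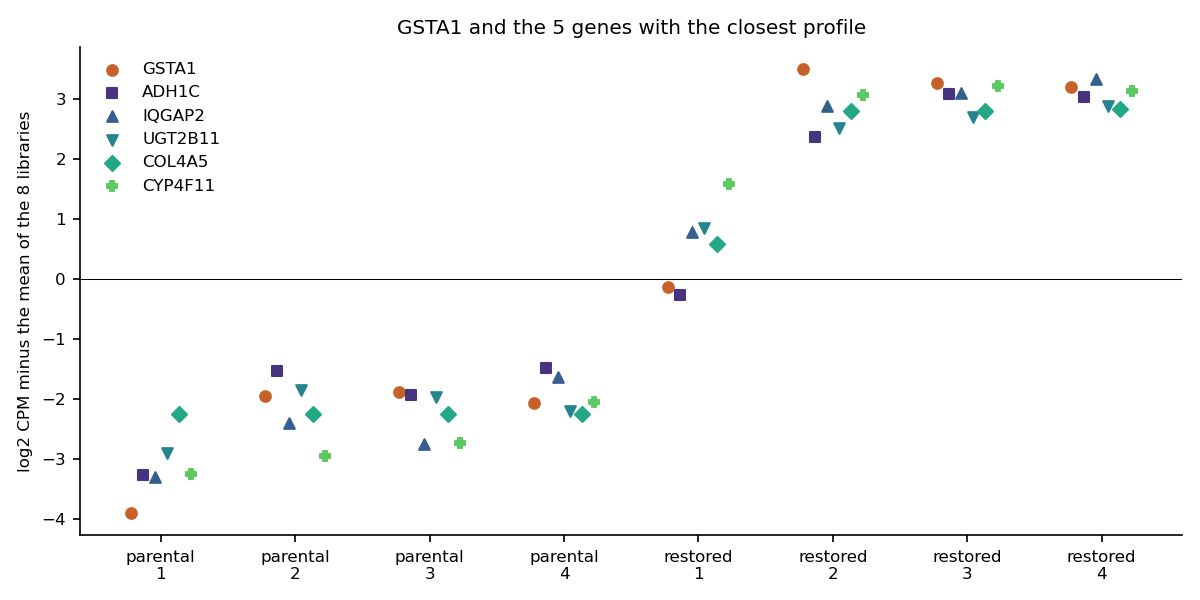
Centred log2 CPM (each gene minus its mean of the 8 libraries) of GSTA1 and the 5 genes closest to it, by library. All 6 are low in parental 1 to 4, intermediate in restored 1 and high in restored 2 to 4, where GSTA1 reaches 40.3 to 49.8 CPM.

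Of the rest of the family, 16 genes were matched in the table and 6 passed the filter. GSTT1, also listed, was not matched in the annotation used and was not analysed. In edgeR's quasi-likelihood test 2 of the 6 rose and 0 fell, beside 10.4% and 8.77% of all genes. The median log2 fold change of the 6 was 0.57. None of the 6 fell at an unadjusted p under 0.05 or with DESeq2 or limma-voom (0 each). With no expression filter 1 further gene was called lower, GSTT2B, which had at most 5 counts in a library. PTGES, the inducible microsomal prostaglandin E synthase and a relative of MGST1, rose from 0.534, 0.677, 0.0891 and 0.429 CPM in the parental to 9.36, 9.08, 8.18 and 7.73 CPM in the restored libraries (log2 fold change 4.25, SE 0.36, adjusted p = 4.6e-05). Unlike for GSTA1, restored 1 was the highest of its group. MGST3, a microsomal transferase with peroxidase activity, rose from 84.5, 88.4, 75.5 and 76.1 CPM to 144, 170, 158 and 123 CPM (0.88, SE 0.13, adjusted p = 0.00138). Both microsomal relatives were thus higher in 4 of 4 restored libraries, where the value of MGST1 was lower.

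The other 4 tested relatives did not pass. GSTO2, the neighbour and relative of GSTO1, had a log2 fold change of 1.00 (SE 0.42, adjusted p = 0.120), and its adjusted p was 0.0234 without parental 1. MGST2, which can make leukotriene C4, was at 0.26 (adjusted p = 0.303). GSTZ1, a tyrosine breakdown enzyme, was at -0.25 (0.421), and GSTCD, a protein with a transferase-like domain, at 0.05 (0.945). GSTA3, GSTA5, GSTM5 and GSTT4 had no counts in any library, which allows up to 0.108 to 0.267 CPM by the limit of 3 counts. GSTM1 had at most 5 counts in a library. GSTM1 shares 559 exon bases with GSTM2 on the same strand.

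Among the listed genes that make and recycle glutathione, the co-substrate, every call was a decrease. The list was chosen with earlier results of these data known, so this describes the listed genes only. Of 19 listed genes, all tested, 0 rose and 5 fell in edgeR's quasi-likelihood test, beside 10.4% and 8.77% of all genes tested. The list's median log2 fold change was -0.22, and 13 were below 0. None rose at an unadjusted p under 0.05 or with DESeq2 or limma-voom either (0 each). GCLM, the modifier subunit of the enzyme that limits glutathione synthesis, fell from 244 ± 17.2 to 148 ± 20.0 CPM (-0.73, SE 0.13, adjusted p = 0.00371). CTH, which makes cysteine from cystathionine, fell from 57.7 ± 7.17 to 38.5 ± 3.46 CPM (-0.58, SE 0.13, adjusted p = 0.0119). Both were lower in 4 of 4 restored libraries and passed in each of 17 alternative fits. The catalytic subunit GCLC was at -0.42 (adjusted p = 0.132), glutathione synthetase GSS at -0.23 (0.270) and glutathione reductase GSR at -0.22 (0.331).

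The other calls described here were near the threshold. OPLAH, which recycles oxoproline, was at -0.43 (adjusted p = 0.0437), and SLC7A11, the cystine importer, at -0.46 (0.04999, just under the threshold). Each was lost in 10 of the 17 alternatives. The count of 5 became 2 without parental 2, parental 3, restored 2, restored 3 or restored 4, 3 without parental 4 or restored 1, and 8 without parental 1 and restored 1 together.

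Of 21 listed genes that process and export glutathione conjugates, 17 were tested, 2 rose and 3 fell, and the median log2 fold change was 0.00. Over all genes tested 10.4% rose and 8.77% fell. ABCG2, an efflux pump of many drugs and conjugates, fell from 73.3, 115, 131 and 144 CPM to 53.1, 42.9, 46.5 and 48.4 CPM (-1.28, SE 0.19, adjusted p = 0.00139). ABCC2, the canalicular exporter of glutathione conjugates into bile, fell from 958 ± 20.8 to 615 ± 32.1 CPM (-0.64, SE 0.12, adjusted p = 0.00408). Its values did not overlap, running from 941 to 988 CPM and from 582 to 654 CPM.

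Both steps of the glyoxalase pathway, which uses glutathione to detoxify methylglyoxal, rose. GLO1 went from 124 ± 24.7 to 203 ± 33.0 CPM (0.71, adjusted p = 0.0174; 0.0593 without restored 4). HAGH went from 55.9 to 74.9 CPM over the parental to 75.4 to 120.3 CPM over the restored libraries (0.65, adjusted p = 0.0198), but its lowest restored value, in restored 1, was just above the highest parental value. HAGH was above 0.05 without parental 2, parental 3, restored 2 or restored 3 (0.0516 to 0.0654), and it shares 254 exon bases with FAHD1, which is read from the other strand; the strand setting of the counting is not given in the sources used here. GGT7, a gamma-glutamyltransferase relative, fell (-0.51, adjusted p = 0.0375), a call lost in 9 of 17 alternatives. The count of 5 called was 3 without parental 2, restored 2, restored 3 or restored 4, and 9 without parental 1 and restored 1 together.

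**Figure D5:**
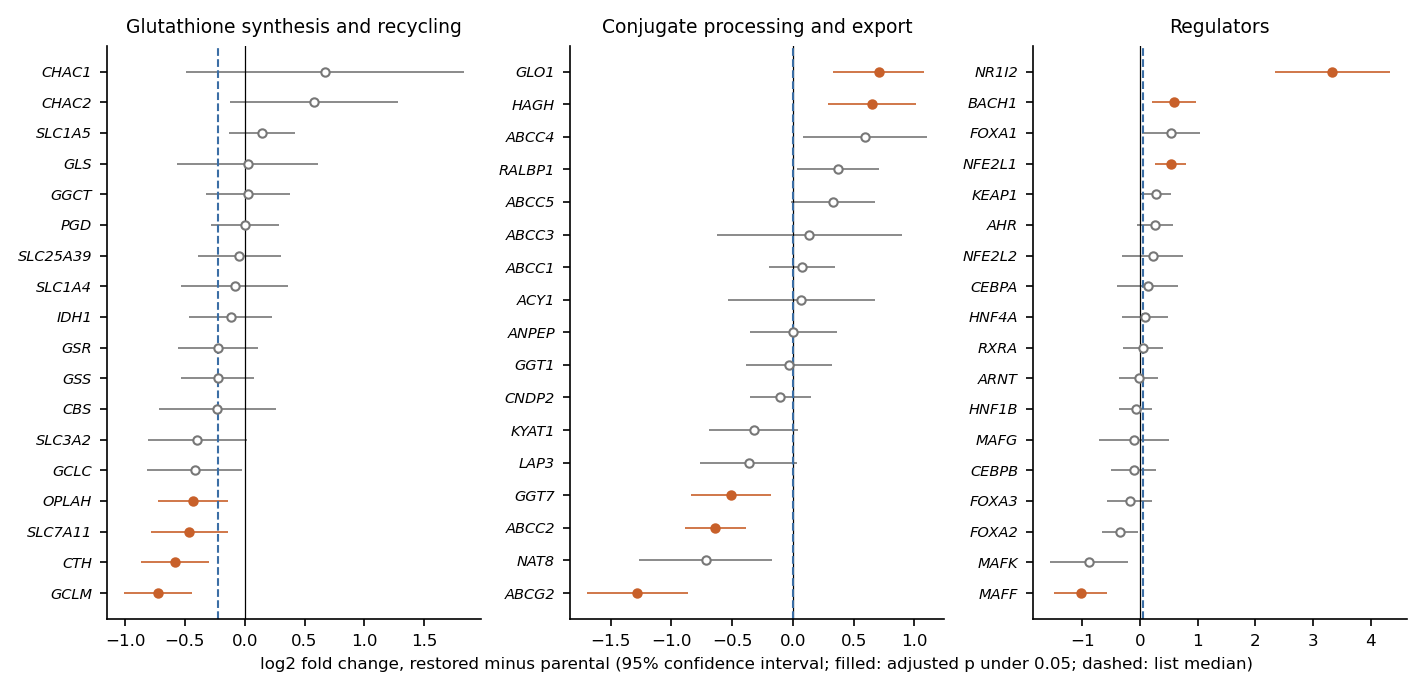
Log2 fold change, restored minus parental, with 95% confidence intervals, of tested genes of 3 lists around the transferases; filled points passed an adjusted p of 0.05 and dashed lines are list medians. GCLM (-0.73) and ABCG2 (-1.28) lie lowest in the first 2 lists, and NR1I2 (3.34) lies far above the other regulators.

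Of 20 regulators known to act on transferase genes, 19 were tested, 3 rose and 1 fell, and the median log2 fold change was 0.05. The 4 calls stand beside 19.2% called over all genes tested, 10.4% higher and 8.77% lower. NR1I2, the pregnane X receptor that senses drugs and induces alpha-class genes, had 1, 2, 1 and 2 counts in the parental and 28, 23, 18 and 33 in the restored libraries. This was a ratio of 10.1 in depth-scaled counts (counting interval 4.50 to 28.3), at a level of only 1.27 ± 0.452 CPM in the restored group (log2 fold change 3.34, SE 0.46, adjusted p = 0.000912). Unlike GSTA1, it was not lowest in restored 1. MAFF, a small MAF partner, fell from 109, 123, 86.2 and 142 CPM to 73.7, 64.1, 45.1 and 42.0 CPM (-1.03, SE 0.21, adjusted p = 0.00701).

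NFE2L1, a relative of NRF2, rose from 436 ± 39.5 to 631 ± 35.2 CPM (0.53, adjusted p = 0.0134; 0.0582 without parental 2). BACH1, a repressor at the same sites, rose from 19.1 ± 2.40 to 28.7 ± 6.11 CPM (0.59, adjusted p = 0.0385), a call lost without parental 2, parental 3, parental 4, restored 1 or restored 4. NFE2L2, the NRF2 gene itself, was at 0.22 (adjusted p = 0.553), and KEAP1, its inhibitor, at 0.27 (0.137). HNF4A, a hepatocyte factor, was at 0.09 (0.772). The count of 4 regulators called was 2 without parental 2.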

How the data were processed

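Messenger RNA libraries (KAPA mRNA HyperPrep, per the labels' protocols) of 8 samples, 4 a group by genotype label, were analysed from 1 deposited table of whole-number read counts per Ensembl gene. Per the submitters' processing notes, bcl2fastq, fastp 0.23.1, STAR 2.7.4 and GRCh38 were used; the counting tool, annotation and use of strand are not given in the sources used here. Symbols and positions came from GENCODE 29 (57943 of 58206 identifiers found) and promoter sequences from RefSeq (GRCh38.p14); coding sequences were compared in place of proteins, which were not analysed here. Genes passing filterByExpr (minimum count 10, minimum total 15) were fitted in R 4.3.3 with edgeR 4.0.16 (TMM, quasi-likelihood test, Benjamini-Hochberg over 14289 genes, threshold 0.05), and each SE was obtained by dividing the size of the log2 fold change by the root of the F statistic. The procedure was tested on simulated data.

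The members and lists were chosen with earlier results of these data known. Named besides the members were the tested relatives, the called genes of 3 pathway lists, at most 6 a list, the nearest tested neighbours within 1 Mb, and the 5 genes closest to GSTA1 in profile. Alternatives were DESeq2 1.42.0, limma-voom (limma 3.58.1), other scalings and filters, a replicate block, a threshold of 0.01, each library left out and, chosen after seeing the data, parental 1 and restored 1 left out together. The counting precision is given by 3 counts a library. Of the pathway lists, 2 tested genes count in the totals but are not reported here.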

Additional observations from a re-analysis of the deposited data

Results flagged for a closer look

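In 7 of 90 groups of 4 libraries checked, 1 library lay far from the other 3 relative to the group's range (Dixon's criterion). Chance gives about 1 in 20 for independent groups. These groups are not independent, and some genes were picked for likeness to GSTA1, so no conclusion is drawn from the count. Restored 1 was low for GSTA1, at 3.91 CPM against 40.3 to 49.8 CPM in the others, and for GSTA4, at 37.9 CPM against 59.7 to 62.0 CPM. It was also low for COL4A5, at 0.717 CPM against 3.79 to 3.86 CPM, and for CYP4F11, at 5.74 CPM against 16.3 to 18.1 CPM. These 2 had been picked for a profile close to GSTA1 over the same libraries. Their low value in restored 1 is part of that choice and adds no further evidence. Parental 1 was low for GSTA1, at 0.178 CPM against 0.930 to 1.07 CPM, and for its neighbour TMEM14A, at 21.1 CPM against 34.7 to 35.7 CPM. AXIN1 in restored 4 was at 37.7 CPM against 47.6 to 48.2 CPM. The cause was not tested.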

How the results depend on the processing

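The members' log2 fold changes kept their sign in 151 of 153 alternative values and none moved by 1 SD or more; the exceptions were GSTK1 without parental 4 (-5e-05) and without restored 2 (-0.039); GSTK1 ran up to 0.29 without parental 1 and restored 1. The other named genes kept direction and side of the threshold in 516 of 594, lost a call in 54 and gained one in 14. In 10 a gene that was not called changed sign: GSTCD without parental 1 (-0.21), parental 2 (-0.035), restored 1 (-0.055) or restored 4 (-0.15), and without parental 1 and restored 1 (-0.30); SFR1 without parental 1 (-0.023), restored 1 (-0.019) or both (-0.17; up to 0.30 without parental 3); GSTZ1 without both (0.041; down to -0.36 without parental 2); and CASP2 with total counts only (0.038). Over all genes, 2738 were called; leaving out 1 library gave 1394 to 3523 (1508 without parental 2, 1531 without restored 3, 1394 without restored 4), an adjusted p under 0.01 gave 964, and leaving out parental 1 and restored 1 together, chosen after seeing the data, gave 4623. The relatives called were 2 to 3, of which 1 was lower with no expression filter. The 5 glutathione synthesis genes became 2 with total counts only, with no expression filter and with the replicate block, 1 under 0.01, 8 without parental 1 and restored 1, and 2 to 5 with 1 library left out. The 5 conjugate genes became 2 under 0.01, 9 without both libraries, and 3 to 7 with 1 left out. Without parental 1 the log2 fold change was -1.45 for ABCG2 and 0.58 for GLO1. The 4 regulators became 2 under 0.01, 6 without both libraries, and 2 to 4 with 1 left out. The median around GSTM3 (-0.62) ranged from -0.83 to -0.54; that around GSTA1 (0.35) was 0.24 to 0.40 with 1 library left out and -0.029 with no expression filter, which tests more genes. With principal transcript lengths the parental GSTP1 share was 80.9%. The replicate block called 2033 genes. The deviations of same-numbered libraries from their group means correlated at -0.063, 0.0067, -0.032 and 0.23. Other pairs across the groups ran from -0.43 (parental 4 with restored 2) to 0.45 (parental 1 with restored 2). Whether the numbers stand for a shared batch cannot be told from these values, and the labels name no batch. Depth limits GSTA2, NR1I2 and the parental GSTA1 values, which rest on few counts. The causes were not tested.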
